A study of Rattus norvegicus with 63 samples.

Results

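The livers of rats given dehydroepiandrosterone (DHEA) for 14 days were compared with those of rats given the vehicle methylcellulose (MC) alone. The samples were chosen by their labels, DHEA rats 1 to 3 and MC control set 1 rats 4 to 6, which are 6 of the 63 miRNA arrays of the study. All rats were male Wistar Hanover rats, aged 8 to 10 weeks when they were assigned to dose groups, and received the compound or the vehicle by gastric gavage. DHEA was given at 600 mg/kg per day. Of the 5 rats dosed per group, 3 were profiled, with 1 array of whole liver RNA per rat, and per the methods the treated rats were picked for histological liver changes, so they may not stand for the whole group. A miRNA level is given as the normalized log2 brightness of its spots, and a log2 fold change as the mean level in DHEA rats minus that in control rats. The array carries 350 rat miRNAs, and the 162 that the scanner software detected in some liver of the study were tested.

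DHEA is an adrenal steroid and a precursor of androgens and estrogens. At high doses it acts as a peroxisome proliferator in rodent liver, through the nuclear receptor PPARα, and it promotes liver tumours in rats. MicroRNAs are short RNAs that pair with messenger RNAs mainly through their seed, the bases near the 5′ end, and lower the translation and stability of these messengers. Many are cut from a shared primary transcript, so that neighbours in the genome can be made together.

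In the arrays filed under the name DHEA, miR-365 and miR-193 were 2.18-fold and 2.15-fold higher than in the controls, miR-29b was 1.83-fold higher and miR-99a was 1.65-fold lower. The neighbours miR-125b-5p and let-7c were lower too, whereas let-7a, let-7d and let-7f were higher. A second source of the same samples, the value table of the study, gave a different picture. Its DHEA columns follow the arrays filed as DES (diethylstilbestrol, 10 mg/kg per day for 3 days), and its columns of MC control set 1 follow the arrays filed as MC control set 5. No array is thus shared by the comparison in the scanner files and the comparison in the table. In turn, the table's DES columns follow the arrays filed as DHEA (r from 0.95 to 0.96), and its MC control set 2 columns those of MC control set 1. Over 71 miRNAs, r was 0.84 to 0.90 between the DHEA columns and the DES arrays they follow. With the DHEA arrays of the same name it was -0.04 to 0.21. In the table miR-107 led the changes, miR-193 and miR-365 did not pass the test, and let-7c and let-7b were higher instead of lower. Which of the assignments holds the DHEA rats was not settled by the sources used here, and all results are given with their source.

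The mature sequences of the miRNAs that carry these differences are shown 5′ to 3′, as RefSeq lists them for the rat assembly GRCr8, with the seed (bases 2 to 8) in capitals. The names on the array are older and mostly give no arm, so the arm is that of the usual guide strand of each name. Of the 24 names looked up, 23 matched, all but miR-99a, and they hold 13 different seeds. The first set holds miRNAs that were higher in the scanner files. miR-17 and miR-93, with small changes (0.07 and 0.05 on the log2 scale), are shown because they share the seed of miR-20a.
miR-193a-3p: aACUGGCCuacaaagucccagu
miR-365-3p: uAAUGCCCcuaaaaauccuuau
miR-29b-3p: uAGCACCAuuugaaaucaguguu
miR-34a-5p: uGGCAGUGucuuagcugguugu
miR-20a-5p: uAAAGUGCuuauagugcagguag
miR-17-5p: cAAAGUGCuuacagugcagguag
miR-93-5p: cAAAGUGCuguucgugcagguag

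The second set holds the let-7 family, whose members share a seed and moved in opposite directions.
let-7a-5p: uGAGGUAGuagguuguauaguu
let-7d-5p: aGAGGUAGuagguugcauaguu
let-7f-5p: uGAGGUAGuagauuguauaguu
let-7b-5p: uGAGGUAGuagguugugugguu
let-7c-5p: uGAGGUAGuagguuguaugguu
Between let-7a and let-7c 1 base differs, and between let-7b and let-7c also 1. Between let-7a and let-7f 1 base differs, and between let-7d and let-7b 4. Whether a probe of the array also binds a neighbour in this family was not tested.

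The last set holds 3 of the 14 miRNAs that were lower in the scanner files, and then miR-107 and miR-103, which share a seed and differ by 1 base, with miR-324-3p, since these depended on the source.
miR-125b-5p: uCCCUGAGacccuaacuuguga
miR-192-5p: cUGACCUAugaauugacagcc
miR-21-5p: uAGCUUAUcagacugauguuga
miR-107-3p: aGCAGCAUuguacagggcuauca
miR-103-3p: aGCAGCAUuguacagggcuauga
miR-324-3p: cCACUGCCccaggugcugcugg

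The 3 DHEA arrays lay on the same slide and were scanned on day 2, with 104 to 112 miRNAs detected and a median spot brightness of 145 to 147 units. Control rats 5 and 6 were scanned on day 2 on another slide, with 96 and 102 miRNAs detected. Control rat 4 stood apart: its array was scanned on day 3 on a slide of neither, its median spot brightness was 78 units and 141 miRNAs were detected on it. After normalization, the deviations of the DHEA arrays from the mean of all arrays correlated with r from 0.88 to 0.90 across the 162 miRNAs, and those of the control arrays with r from 0.41 to 0.69. The tissue label was borne out by the high level of miR-122, the leading miRNA of hepatocytes, at 14.66 to 14.67 on all 6 arrays. The normalization gives the brightest spots nearly the same values on every array, so this narrow range does not measure hepatocyte content. Since whole liver was measured, fewer cells of a type and less RNA per cell cannot be told apart.

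In the comparison of the scanner files, 30 of 162 miRNAs (18.5%) passed limma's test at an adjusted p under 0.05, of which 16 were higher and 14 lower in DHEA rats. The changes were small for most of them: 4 exceeded 1.5-fold, 12 exceeded 1.2-fold and 15 exceeded 1.1-fold. The background is not subtracted from these values, so that fold changes of dim miRNAs are compressed. Of the 30, 16 were well above background on all 6 arrays. In 27 of the 30 all DHEA rats lay beyond all control rats. The same held for 57 of all 162 miRNAs (35.2%), 31 above and 26 below the controls.

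miR-365 and miR-193 rose the most. miR-193 is counted among the miRNAs that restrain cell growth, and both are made from neighbouring hairpins. The level of miR-365 was 9.66, 9.78 and 9.65 in DHEA rats and 8.51, 8.58 and 8.63 in control rats. The groups lay far apart, and the log2 fold change was 1.13 (SE 0.06, adjusted p = 1.03e-19 by limma). miR-193 was at 10.18, 10.25 and 10.47 in DHEA rats and at 9.08, 9.60 and 8.91 in controls. The highest control, rat 5, still lay below the lowest DHEA rat, and the log2 fold change was 1.10 (SE 0.10, limma's adjusted p = 1.20e-11). The passenger strand of miR-193 (miR-193*) was also called, near the background of the array, with a log2 fold change of 0.08.

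miR-29b, a repressor of collagens and other matrix genes, rose as well. It lay at 10.35, 10.54 and 10.40 in DHEA rats and at 9.51, 9.75 and 9.43 in control rats, without overlap. Its log2 fold change was 0.87 (SE 0.13, adjusted p = 1.63e-06 by limma). The other members of its family differ from it beyond the seed and did not pass the test, with log2 fold changes of 0.12 for miR-29a and 0.04 for miR-29c. miR-34a, a direct target of p53, was at 7.91, 8.22 and 8.45 in DHEA rats and at 7.80, 7.70 and 7.87 in controls. The lowest DHEA rat nearly met the highest control, and the log2 fold change was 0.40 (SE 0.12, limma's adjusted p = 0.0123). Without DHEA rat 2, DHEA rat 3 or control rat 5 this call was lost (0.39, 0.27 and 0.36 on the log2 scale), and the other members of the list, miR-34b and miR-34c, did not pass the test.

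miR-99a fell the most. It is known as a repressor of mTOR and is encoded next to let-7c and miR-125b. Its level was 8.64, 8.50 and 8.61 in DHEA rats and 9.40, 9.22 and 9.29 in controls, a log2 fold change of -0.72 (SE 0.09, limma's adjusted p = 8.54e-09). miR-125b-5p was at 8.44, 8.34 and 8.40 in DHEA rats and at 8.996, 8.79 and 8.96 in controls. For both miRNAs every DHEA rat lay below every control, and miR-125b-5p fell by 0.52 on the log2 scale (SE 0.08, adjusted p = 1.06e-06 by limma). miR-100, of the same family as miR-99a, was also called, with a change of -0.07 near background, which was lost without DHEA rat 2 (-0.06) or control rat 4 (-0.06).

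miR-192, an abundant miRNA of hepatocytes, was at 10.71, 10.44 and 10.44 in DHEA rats and at 11.01, 10.79 and 10.86 in controls. It fell by 0.36 on the log2 scale (SE 0.07, limma's adjusted p = 1.05e-04), while miR-194, encoded beside it, had a log2 fold change of -0.14 that did not pass the test. miR-21, which is known to rise in growing and injured liver, was lower in DHEA rats: 12.15, 12.31 and 12.15 against 12.49, 12.46 and 12.45. Its log2 fold change was -0.27 (SE 0.08, adjusted p = 0.0190 by limma), and the call was lost without DHEA rat 1 (-0.24), DHEA rat 3 (-0.24) or control rat 4 (-0.26). miR-221, a repressor of the cell cycle inhibitor p27, was well above background on 0 of the 3 DHEA and 1 of the 3 control arrays. Its log2 fold change, near background, was -0.08 (limma's adjusted p = 0.00203). miR-33, which lies in a sterol-regulated gene and represses cholesterol export, had a log2 fold change of -0.07, and miR-140* one of -0.09, both called. Each lost its call in 6 of the 19 alternatives that kept the arrays filed as DHEA, and against controls on the slide of the DHEA arrays they were at -0.01 and -0.05.

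The remaining calls were small. miR-335 was at 7.70, 7.76 and 7.77 in DHEA rats and at 7.53, 7.58 and 7.58 in controls, a log2 fold change of 0.18. miR-375, miR-652 and miR-152 were higher by 0.06, 0.06 and 0.05 on the log2 scale, and miR-30a*, miR-7a* and miR-674-3p had log2 fold changes of -0.07, -0.03 and -0.04. miR-375 was detected on 2 of the 63 arrays of the study. miR-7a* and miR-674-3p were each well above background on 0 DHEA arrays and 1 control array. The calls of miR-30a* and miR-674-3p were each lost without 5 of the 6 rats in turn, and that of miR-152 without DHEA rat 1 (0.04) or control rat 6 (0.04).

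**Figure D1:**
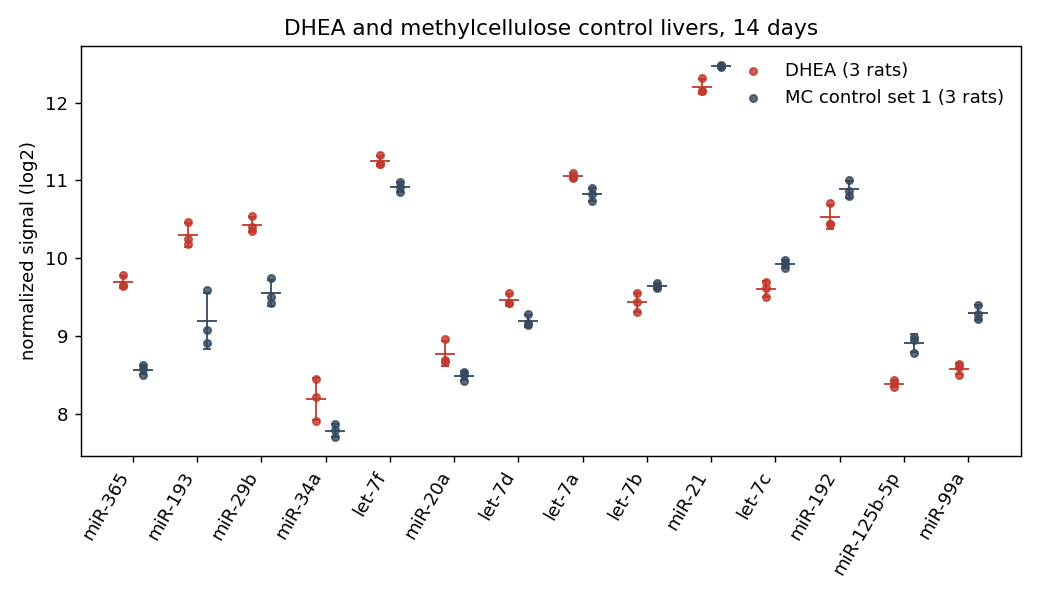
Levels (normalized log2 signal) of the called miRNAs whose groups do not overlap, ordered by log2 fold change. Those with a low mean level in DHEA rats are left out, among them miR-335 (7.75) and miR-140* (7.66). Dots are rats (3 per group), bars the mean and SD. miR-365 (8.51 to 9.78 over all rats), miR-193 and miR-29b show the widest gaps above the controls, and miR-99a the widest below.

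The let-7 family, whose members repress growth genes such as those for RAS and HMGA2, split by member. Of its 8 members, 3 were higher, 2 were lower and 3 did not pass the test, beside 9.88% and 8.64% of all tested miRNAs called higher and lower. let-7f lay at 11.33, 11.21 and 11.21 in DHEA rats and at 10.85, 10.92 and 10.98 in controls, a log2 fold change of 0.34 (SE 0.07, limma's adjusted p = 2.26e-04). let-7d was at 9.56, 9.42 and 9.43 in DHEA rats and at 9.14, 9.29 and 9.16 in controls, a log2 fold change of 0.27. let-7a was at 11.10, 11.05 and 11.03 in DHEA rats and at 10.73, 10.82 and 10.91 in controls, a log2 fold change of 0.24. In these 3 members all DHEA rats exceeded all controls. let-7c went the other way, at 9.70, 9.50 and 9.61 in DHEA rats against 9.92, 9.87 and 9.97 in controls, a log2 fold change of -0.32 (SE 0.06, limma's adjusted p = 1.16e-04). let-7b was at 9.55, 9.32 and 9.43 in DHEA rats and at 9.63, 9.62 and 9.69 in controls, a log2 fold change of -0.21. let-7e, let-7i and miR-98 had log2 fold changes of -0.03, 0.12 and -0.00015. The calls of let-7a and let-7b were the least firm: let-7a lost its call without DHEA rat 1 (0.22) or control rat 4 (0.19), and let-7b without DHEA rat 2 (-0.15) or control rat 6 (-0.19). Against controls on the slide of the DHEA arrays neither was called (0.18 and -0.18, limma's adjusted p = 0.144 and 0.101). let-7a was not called against MC control set 2 either (0.07), nor with the control arrays exchanged for those of MC control set 5 (0.18).

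The calls were set beside the position of the hairpins in the genome (GRCr8). For 150 of the 162 tested miRNAs a hairpin was found, and hairpins within 50000 bases of each other were taken as a cluster, a distance chosen with the values known. Of 29 such clusters, 6 held 2 or more called miRNAs, beside 18.5% of all tested miRNAs called. In 5 of these the calls had the same direction, and in 1 they had both. Whether this exceeds what neighbours show in general was not tested, and strands of 1 hairpin are counted as separate miRNAs. let-7a, let-7c and miR-125b-5p are each counted in 2 of the 6 clusters.

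On chromosome 10, the hairpins of miR-193 (65170317 to 65170402) and miR-365 (65184217 to 65184302) lie 13.99 kb from end to end, and both mature miRNAs and miR-193* rose. On chromosome 17, the hairpins of let-7a, let-7f and let-7d lie within 2.23 kb from base 16320133, and all 3 mature miRNAs rose. On chromosome 15, the miR-17 to miR-92a cluster, known from proliferating cells, spans 0.785 kb from base 98587848. Of its 7 tested miRNAs 3 were higher and none lower, beside 9.88% and 8.64% of all tested miRNAs called higher and lower. miR-20a was higher by 0.28 on the log2 scale, miR-17 by 0.07 and miR-18a by 0.04. Each of these calls was lost without DHEA rat 2 (0.19, 0.04 and 0.03). miR-18a was well above background on 0 DHEA and 0 control arrays, and its groups overlapped.

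The clusters with lower members lie elsewhere. On chromosome 11, miR-99a, let-7c and miR-125b-5p are encoded within 45.26 kb from base 29687392, and all 3 fell. miR-99a* was called with -0.03, near background and with overlapping groups. On chromosome 7, let-7c and let-7b lie within 0.497 kb from base 118683623, and both fell. The cluster with both directions, on chromosome 8, holds miR-100, a second copy of let-7a and a second copy of miR-125b. let-7a, let-7c, let-7f, miR-17, miR-29b and miR-125b are encoded at 2 loci each, which the array cannot tell apart.

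**Figure D2:**
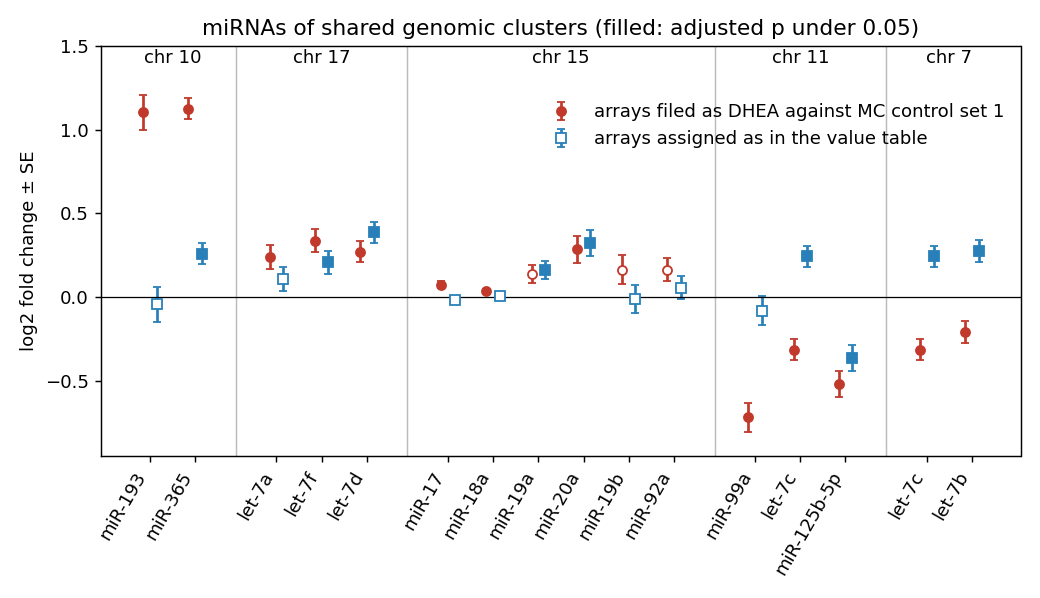
Log2 fold changes (± SE) of miRNAs from 5 genomic clusters, named by rat chromosome, with filled symbols for an adjusted p under 0.05. Circles are the arrays filed as DHEA against MC control set 1, and squares the arrays that the value table's columns follow. miR-193 stands at 1.10 in the first and at -0.04 in the second, and let-7c at -0.32 and 0.24.

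Lists of miRNAs grouped by function or family were described by their counts, beside 9.88% of all tested miRNAs called higher and 8.64% called lower, and a median log2 fold change over all miRNAs of -0.0042. In the list of the miR-17 cluster and its paralogs 4 of 9 were higher and none lower, with miR-93 as the 4th (0.05, lost without DHEA rat 2 or control rat 5, at 0.04 each). In the list of miR-99, miR-100 and miR-125, 3 of 5 were lower and none higher. Of 9 hepatocyte miRNAs, miR-193 and miR-365 were higher and miR-192 lower. Of 11 miRNAs known for targets in lipid and sterol metabolism, miR-29b was higher and miR-33 lower, the latter not against MC control set 2 (-0.02) or all MC controls pooled (-0.03). Of 4 tested growth and injury miRNAs, miR-21 and miR-221 were lower. No member was called in the lists of the miR-15, miR-23, miR-26, miR-30, miR-96, miR-181 and miR-200 families. Nor was any called among 6 leukocyte, 2 erythroid and 7 stellate, smooth muscle and endothelial miRNAs. In the miR-96 and miR-181 lists only 1 of 3 and 1 of 4 members were tested. miR-96, miR-141, miR-200c and miR-429 were each well above background on 0 DHEA arrays and 1 control array, so a change in them could be missed.

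Markers of other cells were measured in the same arrays. The summed leukocyte miRNAs lay between 10.40 and 10.57 (log2) in DHEA rats and between 10.52 and 10.54 in controls. The erythroid miRNAs ranged from 9.81 to 9.92 and from 9.86 to 10.26, and the stellate, smooth muscle and endothelial miRNAs from 11.07 to 11.13 and from 11.05 to 11.13. The groups overlapped in each of these sums. Background is not subtracted and is part of every sum, so the overlap does not show that cell content was alike. miR-146b was well above background on 0 DHEA and 0 control arrays, and miR-10b and miR-214 each on 0 and 1. Of the defining markers, miR-145 was well above background on 0 of the 6 arrays and miR-150 on 3. The sum of the hepatocyte miRNAs was 15.02 to 15.07 in DHEA rats and 15.03 to 15.05 in controls. It is led by miR-122, which the normalization holds nearly equal between arrays, so it does not measure hepatocyte content.

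Slide and scan day bear on these calls. Against the 2 rats of MC control set 5 whose arrays shared the slide with the DHEA arrays, 25 of 162 miRNAs were called (15.4%), 16 higher and 9 lower, and 21 of the 30 calls were found again in the same direction. There miR-365 had a log2 fold change of 1.05, miR-193 of 1.20, miR-29b of 0.96 and miR-99a of -0.61. With slide as a block in the fit over all arrays, 6 miRNAs were called, and the median SE grew from 0.027 to 0.063. They were miR-365 (1.10), miR-193 (1.31), miR-99a (-0.91), miR-125b-5p (-0.70), miR-192 (-0.66) and miR-101a (-0.42), which was not called without the block. With scan day as a block 30 were called. Starting from the processed signal of Agilent's software and scaling it to the 75th percentile of the detected probes moved the median of all miRNAs by 0.12 and turned the split into 31 higher and 8 lower calls. With all probes the split was 13 higher to 8 lower. Relative to the median, the let-7 calls had the same direction under both scalings, but let-7a went to 0.07. let-7a and let-7b lost their calls under both (limma's adjusted p = 0.129 and 0.140 with the detected probes), and let-7d and let-7f lost theirs with all probes.

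In the value table, 56 of its 135 miRNAs (41.5%) differed between the DHEA columns and those of MC control set 1, 27 higher and 29 lower. The median of each of these 6 columns lay between 4.71 and 4.93 on the log2 scale. Against the arrays they follow, the columns rose with slopes of 2.07 to 2.11, so that a change in the table is larger than in the scanner values. The cause of this slope and whether background was subtracted are unknown. The same assignment applied to the scanner files, arrays filed as DES against arrays filed as MC control set 5, gave 59 of 162 calls (36.4%), and 48 of the 56 calls of the table were among them in the same direction. Of the 30 calls of the arrays filed as DHEA, 9 were found in this assignment in the same and 4 in the opposite direction. The 9 include miR-365 (0.26, limma's adjusted p = 0.00152), which the table did not call and which was not called with scan day as a block (0.25, limma's adjusted p = 0.0673). The rats filed as DES were dosed for 3 days and those of MC control set 5 for 14. In this assignment all treated arrays were scanned on day 1 and all control arrays on day 2, so that scan day and treatment cannot be told apart within the pair. The scanner software also flagged the 3 arrays filed as DES for evaluation, whereas those of MC control set 5 were marked as in range. With the scan day of the followed array as a block over all groups, 8 calls were left in the table and 4 in the scanner files.

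miR-107, encoded in an intron of the pantothenate kinase gene Pank1, led the table. Its table values were 8.71, 8.43 and 8.62 in the DHEA columns and 7.00, 6.93 and 6.95 in the control columns, a log2 fold change of 1.63 (SE 0.12, limma's adjusted p = 6.65e-16). In the arrays filed as DHEA it was at 8.36, 8.31 and 8.31, against 8.37, 8.28 and 8.36 in MC control set 1, so the groups overlapped and the log2 fold change was -0.01. The arrays filed as DES held 9.27, 9.11 and 9.19, above all controls. miR-103, which shares its seed, had a log2 fold change of 0.39 in the table and of -0.04 in the arrays filed as DHEA.

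Other leading changes of the table were also absent from the calls of the scanner files. miR-324-3p was at 3.19, 3.16 and 3.08 in the DHEA columns and at 4.99, 5.05 and 5.08 in the control columns. Its log2 fold change was -1.90 in the table and -0.07 in the arrays filed as DHEA. miR-345-5p had -1.01 and 0.03, miR-378*, from an intron of Ppargc1b, 0.86 and 0.03, miR-98 0.63 and -0.00015, and miR-200b 0.97 and -0.02. miR-19a (0.64), miR-139-3p (-1.57), miR-345-3p (-1.08) and erythroid miR-144 (-1.05) were called in the table alone as well. The call of miR-144 was lost without any 1 of the 6 columns (-1.18 to -0.89 on the log2 scale), that of miR-345-3p without any but control rat 4 (-1.11 to -0.73), and that of miR-200b without DHEA rat 1 or 3 or control rat 5 or 6 (0.80 to 0.98). miR-107, miR-324-3p, miR-345-5p, miR-378* and miR-125b-5p were among the 8 that passed with the scan day as a block. miR-122, miR-26a and miR-30c, all lower, made up the rest.

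Between the sources, 11 miRNAs were called in both, which is 7 in the same and 4 in opposite directions. The 7 are 23.3% of the 30 calls of the files, 29 of which are in the table. There 20% of all miRNAs were called higher and 21.5% lower. The same 7 are 12.5% of the 56 calls of the table, beside 9.88% of all miRNAs called higher and 8.64% called lower in the files. miR-29b (0.87 in the files, 0.50 in the table), miR-20a (0.28 and 0.62), let-7d (0.27 and 0.52), let-7f (0.34 and 0.23), miR-335 (0.18 and 0.68) and miR-93 (0.05 and 0.34) were higher in both. miR-125b-5p was lower in both (-0.52 and -1.24). let-7b (-0.21 and 0.30), let-7c (-0.32 and 0.24), miR-192 (-0.36 and 0.31) and miR-221 (-0.08 and 0.48) changed sign.

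The lists differed by source in the same way. In the value table, where 20% of all miRNAs were called higher and 21.5% lower, 6 of 8 let-7 members were higher and none lower, 3 of 3 miR-29 members were higher, and all 5 members of the miR-23, miR-24 and miR-27 list were lower, as were 3 of 5 miR-30 members and 3 of 6 leukocyte miRNAs. In the files none of the miR-23, miR-30 or leukocyte members was called. Of 11 lipid and sterol miRNAs the table had 5 higher, miR-107 and miR-103 among them, and 4 lower, miR-122 (-0.47) and miR-27a (-0.48) among them. The leukocyte sum lay between 10.34 and 10.43 in the arrays filed as DES and between 10.52 and 10.54 in those of MC control set 5, and its part in the table's results was not tested.

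A test of the difference between the changes under both assignments, on the scanner values, called 27 of 162 miRNAs (16.7%). Of the 30 calls of the files, 12 were among these and by this test depended on the assignment. They include miR-365 (difference 0.87, SE 0.09, limma's adjusted p = 8.30e-11), miR-193 (1.15, SE 0.15), miR-99a (-0.64), miR-192 (-0.62), let-7c (-0.56) and let-7b (-0.49). Scan day and duration also enter this difference, since arrays filed as DES (day 1, 3 days of dosing) were set against MC control set 5 (day 2, 14 days). Counted by calls, 9 of the 30 were found under both assignments in the same direction and 4 in the opposite. For the other 18 no difference was called, which does not show that they are alike: miR-29b differed by 0.49 (SE 0.19, limma's adjusted p = 0.0673) and miR-125b-5p by -0.15 (SE 0.11). miR-107 differed by -0.89 (SE 0.07, limma's adjusted p = 1.00e-14).

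**Figure D3:**
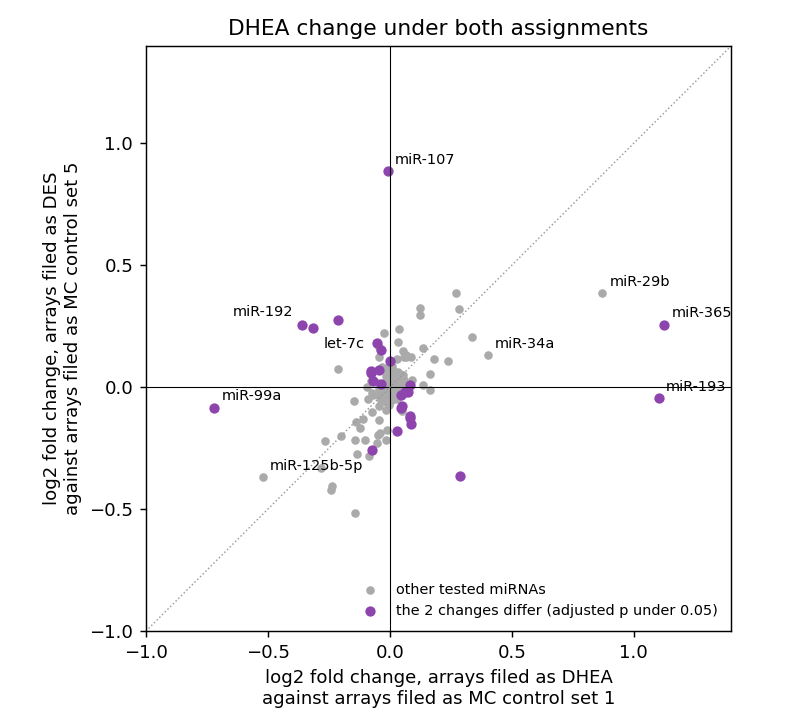
Log2 fold change of each of the 162 tested miRNAs in the arrays filed as DHEA (horizontal) and in the arrays that the table's DHEA columns follow (vertical), with the line of equal change dotted. The 27 miRNAs whose changes differ are dark. miR-365 and miR-193 lie far to the right near the horizontal axis, miR-107 high on the vertical axis, and miR-29b and miR-125b-5p nearer to the dotted line.

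**Figure D4:**
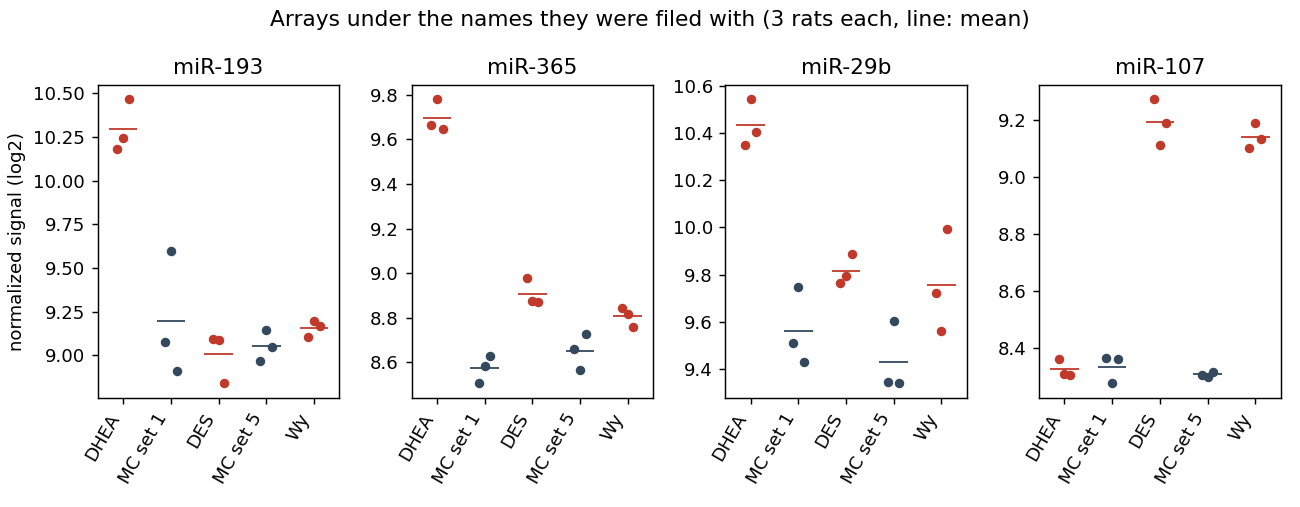
Levels (normalized log2 signal, 1 scale per panel) of 4 miRNAs in arrays under the names they were filed with, 3 rats per group with their mean. Among the 5 groups plotted, miR-193, miR-365 and miR-29b are highest in the arrays filed as DHEA. miR-107 is near 8.3 in those and in the controls, and above 9.1 in the arrays filed as DES and in those filed as Wy.

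The arrays filed as DHEA were also set against 3 other treatments of the study. Wy-14643 (Wy, 60 mg/kg per day for 3 days) is a synthetic PPARα agonist, and Mcarb (methylcarbamate, 400 mg/kg per day for 14 days) shared its vehicle and duration. Both were compared with MC control set 1, as DHEA was, so the treated groups were contrasted directly. Cyproterone acetate (CPA, 100 mg/kg per day for 14 days) is a steroid like DHEA, given in corn oil, and the changes against the labelled control sets were contrasted. Doses differ between all of them and durations between DHEA and Wy, whose control rats were dosed for 14 days. All Wy, CPA and corn oil control arrays were scanned on day 1, so that scan day and treatment cannot be told apart within the pair of DHEA and Wy. The same holds for Wy against MC control set 1, whose arrays were scanned on days 2 and 3. The scanner software flagged the CPA and corn oil control arrays for evaluation, and marked those of DHEA and MC control set 1 as in range. With scan day as a block over all groups, 37 miRNAs differed between DHEA and Wy. Against Wy 45 of 162 miRNAs differed (27.8%), 28 higher and 17 lower in DHEA rats, against Mcarb 34 (21%), 19 and 15, and against CPA 15 (9.26%), 8 and 7. Against the labelled controls, 25.9% of the miRNAs were called with Wy, 1.85% with Mcarb and 5.56% with CPA.

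miR-193 and miR-365 were higher in DHEA rats than in each of the others. miR-193 changed by -0.04 with Wy, -0.26 with Mcarb and -0.03 with CPA, none of them called, and the differences from DHEA were 1.14, 1.36 and 1.14 (limma's adjusted p at most 1.02e-07). miR-365 changed by 0.23 with Wy, which was called, by -0.08 with Mcarb and by 0.10 with CPA, and the differences from DHEA were 0.89, 1.20 and 1.02. miR-29b separated the treatments differently. It rose with CPA by 0.84 (SE 0.13), and the difference from DHEA was 0.03 with a 95% interval from -0.35 to 0.41. Against Wy and Mcarb the difference of miR-29b was 0.68 and 0.77, both called.

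miR-99a was lower with DHEA (-0.72) than with Wy (-0.33), Mcarb (-0.23) and CPA (-0.33), with all 3 differences called. let-7c and miR-192 were lower with DHEA than with Wy and Mcarb (differences of -0.39 and -0.32 for let-7c, -0.45 and -0.28 for miR-192). For CPA the differences were not called after adjustment, with unadjusted 95% intervals from -0.40 to -0.05 for let-7c and from -0.37 to 0.02 for miR-192. miR-34a was -0.33 with CPA, not called, and differed from DHEA by 0.73 (SE 0.17, limma's adjusted p = 0.00204). let-7f was higher by 0.25 in the Wy arrays than in MC control set 1, and its difference from DHEA was 0.09, with a 95% interval from -0.05 to 0.23. miR-107 was higher by 0.81 in the Wy arrays than in MC control set 1, which were scanned on other days. The arrays filed as DHEA differed from the Wy arrays by -0.82 (SE 0.05, limma's adjusted p = 8.02e-19).

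**Figure D5:**
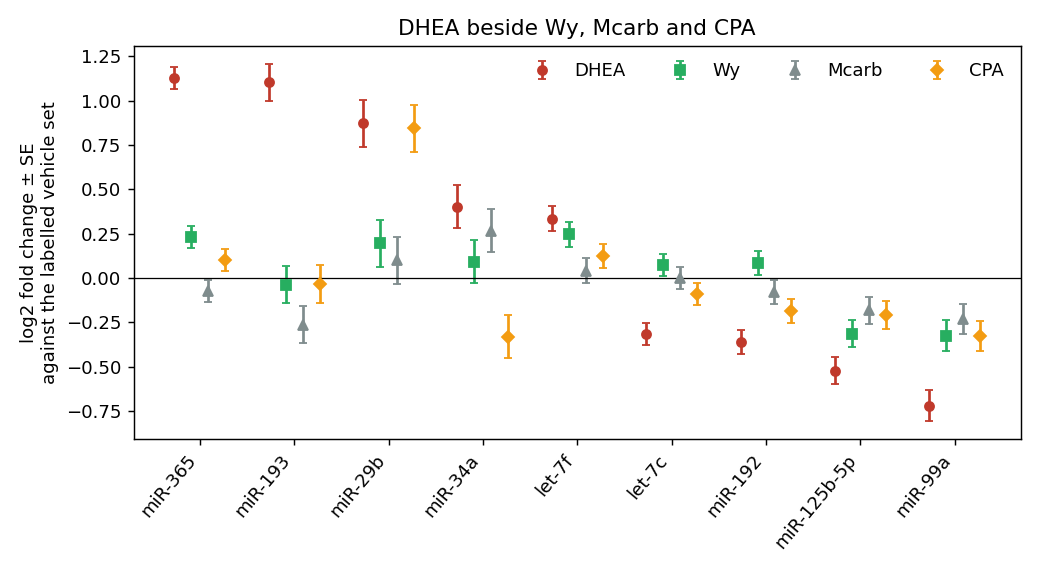
Log2 fold changes (± SE, 3 rats per group) of 9 miRNAs with DHEA, Wy, Mcarb and CPA, each against its labelled vehicle set. miR-365 and miR-193 exceed 1 with DHEA alone and stay below 0.3 with the others, miR-29b is near 0.9 with DHEA and CPA, and miR-99a is below 0 with all 4.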

How the data were processed

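The miRNA profile of each liver was measured on a single-colour Agilent array, read per the file headers with Agilent Feature Extraction 10.7.3.1. The deposited scanner files hold the mean brightness of each spot as an intensity that is neither normalized nor background-subtracted. The authors also deposited a value table of normalized log2 levels for 135 miRNAs, for which their methods state RMA without background correction. Columns were matched to arrays by correlation, and 15 of its 63 columns follow an array filed under another name. Depth is that of an array: signal over background limits the precision of dim miRNAs.

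From the mean brightness, control spots and outlier-flagged spots were dropped. The values were quantile normalized, averaged over the spots of a probe (7000 spots, 938 probes), taken to log2 and summarised per miRNA by median polish. miRNAs that no array detected were dropped. Well above background refers to the software's own mark, required on most spots of any probe of the miRNA. Groups follow the sample labels. limma 3.58.1 in R 4.3.3 was fitted over all 63 arrays in 21 groups with Benjamini-Hochberg adjustment over all miRNAs tested and a threshold of 0.05. Intervals use 42 residual degrees of freedom. The fit was run on simulated data with independent noise per array and no slide or scan day effect. There 38 of 40 changes of 0.25 on the log2 scale were recovered and 0 calls were made without changes. Since the real arrays differ in slide and scan day, this does not give their rate of false or missed calls.

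Named miRNAs were the called ones with groups that do not overlap, up to 10 in each direction from the files and up to 6 from the table, those called in both, and list members. Members and lists were chosen with earlier results of these data known. Alternatives were the value table, other assignments of arrays, scaling of the scanner software's processed signal by the 75th percentile, normexp with an offset of 50, other detection filters, slide or scan day as a block, other control rats, a fit restricted to the compared groups, and fits without each rat. The same-slide comparison, the difference between assignments and the scan day block for the table's assignment were chosen after seeing the data. Sequences and positions are from RefSeq (GRCr8).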

Additional observations from a re-analysis of the deposited data

How the results depend on the processing

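The 30 calls of DHEA against MC control set 1 became 56 in the value table, 59 with arrays assigned as in the table, 74 with the treated arrays alone exchanged, 6 with slide as a block, 13 with only the groups compared and 4 with the table's assignment and scan day as a block. Leaving out 1 rat gave 21 to 32. The 45 calls against Wy became 18 with slide as a block and 22 with only the groups compared, and 26 to 45 without 1 rat, with 27 without DHEA rat 2 and 26 without Wy rat 3. The 34 calls against Mcarb became 53 in the table, 61 with arrays assigned as in the table, 61 with the treated arrays exchanged, 13 with the 75th percentile of all probes, 5 with slide as a block, 10 with only the groups compared and 11 with the table's assignment and scan day as a block, and 25 to 34 without 1 rat. The 15 calls against the CPA change became 38 with the treated arrays exchanged, 7 with slide as a block, 9 against the arrays filed as MC control set 2 and 4 with the table's assignment and scan day as a block, and 10 to 16 without 1 rat. The 56 calls of the table became 8 with scan day as a block and 29 to 49 without 1 rat: 35 without DHEA rat 1, 29 without rat 3, 36 without control rat 5 and 32 without control rat 6.

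Directions reversed with the assignment. miR-193 was at -0.036 in the table, -0.045 with arrays assigned as in it and -0.19 with the treated arrays exchanged. In the same order, and then with the table's assignment and scan day as a block, miR-192 was at 0.31, 0.26, 0.30 and 0.17, let-7c at 0.24, 0.24, 0.27 and 0.20, let-7b at 0.30, 0.28, 0.29 and 0.19, and miR-221 at 0.48, 0.067, 0.061 and 0.060. let-7b also reversed with slide as a block (0.054). The cause was not tested. Under the 19 alternatives that kept the arrays filed as DHEA, 4 of the 30 calls were kept in all (miR-365, miR-193, miR-99a and miR-125b-5p), and 7 in all but the slide block. No paired analysis was possible because DHEA rats 1 to 3 and control rats 4 to 6 share no replicate number.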

Other observations

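Across the other 14 compounds, each under its filed name and against its labelled controls, miR-193 ranged from -0.54 (MPy) to 0.19 (Nif) on the log2 scale, and miR-365 from -0.35 (ETH) to 0.26 (DES), beside 1.10 and 1.13 for DHEA. miR-29b ranged from -0.06 (CFX) to 0.84 (CPA), beside 0.87, and was called in 4 of the 14. Among these was PBO (0.78), whose arrays shared the slide of the DHEA arrays. miR-99a ranged from -0.57 (MPy) to 0.18 (Nif), beside -0.72, and was called in 7 of the 14. Among the compounds set against MC control set 1, as DHEA was, it was called lower with MPy, AA (-0.39), Wy (-0.33) and TAA (-0.23). With Mcarb it was at -0.23, not called. miR-107 was called in 4 of the 14, higher in DES (0.89), Wy (0.81) and PBO (0.21) and lower in CIDB (-0.14). miR-34a, at 0.40 with DHEA, reached 3.44 with CIDB. These values were looked up after the changes of DHEA were known and share control sets between compounds, so no test was made of them.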
